A study of Mus musculus with 9 samples.

Results

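Genes that move sodium and bicarbonate across the kidney tubule were followed in old and young wild-type mice, to ask how the components of a single transport path change with age. The 9 members were taken by symbol from a fixed list (Atp1b1, Fxyd2, Slc9a3, Slc9a3r1, Slc4a4, Car2, Car4, Car14 and Slc4a2), and all 9 were found among the 13081 genes of the table. Kidney RNA was sequenced as 4 libraries from young mice (3 months) and 5 libraries from old mice (16 months), all labelled wild type, with no treatment, sex or strain stated in the labels. Reads came from transcript 3′ ends and were counted by strand, and the values are normalised counts, that is read counts divided by a size factor for each library. The table held 5093029 to 6355095 reads in young and 4486406 to 5794960 reads in old libraries. Mitochondrial ribosomal RNA took 2.98% to 4.46% of the reads in young and 21.8% to 25.4% in old libraries. The library titles carry a prefix that differs between the ages, and the labels do not state what it stands for. A batch that follows this prefix cannot be told apart from age. In bulk tissue, fewer cells of a type and less RNA per cell cannot be told apart either.

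The proximal tubule reclaims most of the bicarbonate that the glomerulus filters. The apical exchanger NHE3 (Slc9a3) secretes protons in exchange for sodium, membrane-bound carbonic anhydrases facing the lumen (Car4, Car14) turn the resulting carbonic acid into water and CO2, and the cytosolic carbonic anhydrase encoded by Car2 rebuilds bicarbonate inside the cell. Bicarbonate leaves with sodium through the basolateral cotransporter NBCe1 (Slc4a4), while the sodium pump, with a beta subunit encoded by Atp1b1 and a regulatory gamma subunit encoded by Fxyd2, keeps cell sodium low and so drives the path.

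Promoter windows of 250 bases before the annotated start were held by RefSeq (GRCm38.p6) for 7 of the 9 members, in 9 windows. Those of the 4 members with the largest differences between the ages are shown, Slc9a3 and Slc4a4, which were higher in old kidneys, and Car4 and Car14, which were lower. Each reads 5′ to 3′ on the strand of the gene and ends at the base before the start. Capitals mark matches to any of 7 searched motifs on both strands, namely the E-box CACGTG, the hepatocyte nuclear factor letters GTTAAT, the nuclear receptor letters AGGTCA, the glucocorticoid receptor letters AGAACA, the TATA box TATAAA, the CCAAT box and the GC box GGGCGG.
Slc9a3, chr13:74121163-74121412, plus strand: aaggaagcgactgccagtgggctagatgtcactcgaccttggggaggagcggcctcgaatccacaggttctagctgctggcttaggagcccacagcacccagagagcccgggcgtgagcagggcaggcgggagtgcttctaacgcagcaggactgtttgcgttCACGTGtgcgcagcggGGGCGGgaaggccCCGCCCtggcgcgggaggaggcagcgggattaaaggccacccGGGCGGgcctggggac
Slc4a4, internal start, chr5:89027716-89027965, plus strand: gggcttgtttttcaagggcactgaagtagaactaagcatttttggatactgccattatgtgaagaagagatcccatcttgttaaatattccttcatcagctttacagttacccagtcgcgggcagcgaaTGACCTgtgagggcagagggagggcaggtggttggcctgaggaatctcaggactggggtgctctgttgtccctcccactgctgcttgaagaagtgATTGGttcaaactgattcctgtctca
Car4, chr11:84957504-84957753, plus strand: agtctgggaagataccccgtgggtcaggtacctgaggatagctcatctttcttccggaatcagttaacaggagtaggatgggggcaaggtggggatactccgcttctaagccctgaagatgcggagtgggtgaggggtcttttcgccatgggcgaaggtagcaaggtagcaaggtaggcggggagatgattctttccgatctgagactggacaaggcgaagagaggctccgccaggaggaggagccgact
Car14, chr3:95904686-95904935, minus strand: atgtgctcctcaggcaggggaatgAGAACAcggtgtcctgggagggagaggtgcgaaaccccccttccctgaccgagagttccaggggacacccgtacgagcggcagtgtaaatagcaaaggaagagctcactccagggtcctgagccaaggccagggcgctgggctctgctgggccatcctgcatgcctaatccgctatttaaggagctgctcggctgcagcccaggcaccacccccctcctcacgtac
The window of Slc9a3 held an E-box, CACGTG, 87 to 82 bases before the start, a motif found in 6.02% of 32851 windows of the same length, and 3 GGGCGG boxes (at least 1 is held by 32.7% of windows). The Slc4a4 window lies in an intron of the longer transcripts of the gene. It held AGGTCA on the other strand 121 to 116 bases before the start (14.0% of windows) and CCAAT on the other strand 26 to 22 bases before it (33.8%). Reads from 3′ ends do not tell this start from the upstream start of Slc4a4. Car14 held AGAACA 226 to 221 bases before its start (16.1%), and 6 bases of its window fall in a Car14 exon of the GENCODE vM21 annotation. Car4 held none of the 7 motifs. The window before the upstream start of Slc4a4, which lies in an exon and is not shown, held GGGCGG on the other strand 115 to 110 bases before that start. These matches describe the letters only and were not tested against the levels.

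Of the 9 members, 7 differed between the ages at an adjusted p under 0.05 (referred to as called), 4 of them higher and 3 lower in old kidneys. Of the 12667 genes tested across the table, 59.7% were called, 29.2% higher and 30.5% lower, and with 9 members this count does not set them apart from genes in general. In the same 7 members the old and young libraries did not overlap, as in 49.0% of all genes tested. A change of at least 2-fold was called in 3 members (Slc9a3, Slc4a4 and Car4) and in 23.9% of genes. The median log2 difference of the members, old minus young, was -0.13 and the median size was 0.57, against -0.003 and 0.56 over all genes tested. Slc9a3, Slc4a4, Atp1b1 and Car2 rose, Car4, Car14 and Slc9a3r1 fell, and Fxyd2 and Slc4a2 were not called. Under each of 21 alternatives of scaling, filter, test and left-out library, 4 members were called higher and 3 lower.

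**Figure D1:**
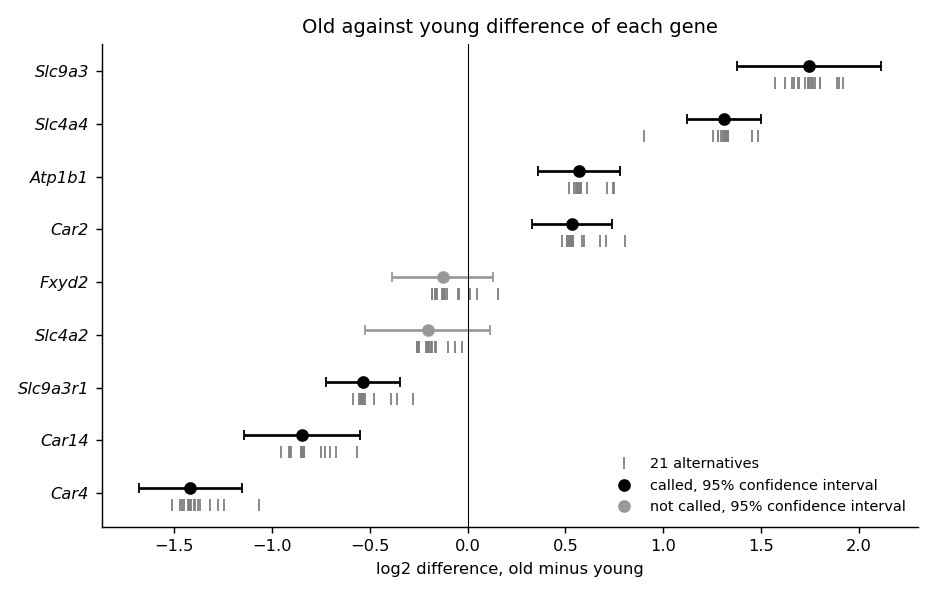
Log2 difference, old minus young, of each of the 9 members (points) with the 95% confidence interval from limma (bars), and its value under 21 alternatives (grey ticks). Slc9a3 at 1.75 and Car4 at -1.42 are at the ends, and the intervals of Fxyd2 and Slc4a2 (grey points) include 0.

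Of the sodium pump members, Atp1b1 rose and Fxyd2 was not called. Atp1b1, on chromosome 1 (164437109 to 164458355, GRCm38, minus strand), encodes the subunit that the pump needs to reach the membrane. It was measured at 11028, 11372, 11474 and 12621 normalised counts in the 4 young libraries and at 18137, 17616, 16756, 16901 and 16836 in the 5 old libraries. Every old library was above every young library. The mean rose from 11624 ± 691 (SD, n = 4) to 17249 ± 604 (SD, n = 5), a log2 difference of 0.57 (SE 0.10, adjusted p 7.64e-05 by limma). An exon of Nme7 lies opposite Atp1b1, on the other strand, which the counting kept apart. The thick ascending limb and the distal convoluted tubule also hold much sodium pump. Their summed markers were 1.42 and 1.53 times as high in old as in young kidneys. In the first list 2 of 6 markers were called higher and 4 were not called. In the second 3 of 5 were called higher and 2 lower, against 29.2% of all genes tested called higher and 30.5% lower. The part of these segments in the Atp1b1 level was not tested.

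Fxyd2, on chromosome 9 (45399669 to 45410278), encodes a small protein that tunes the affinity of the pump for sodium. It stood at 12140, 10536, 10973 and 13885 normalised counts in young and at 11743, 10103, 8590, 12039 and 12085 in old libraries. The ranges overlapped, with the highest value in a young and the lowest in an old library. The log2 difference was -0.13 (95% confidence interval -0.39 to 0.13, adjusted p 0.390 by limma), and it was 0.015 when mitochondrial genes were left out of the scaling.

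**Figure D2:**
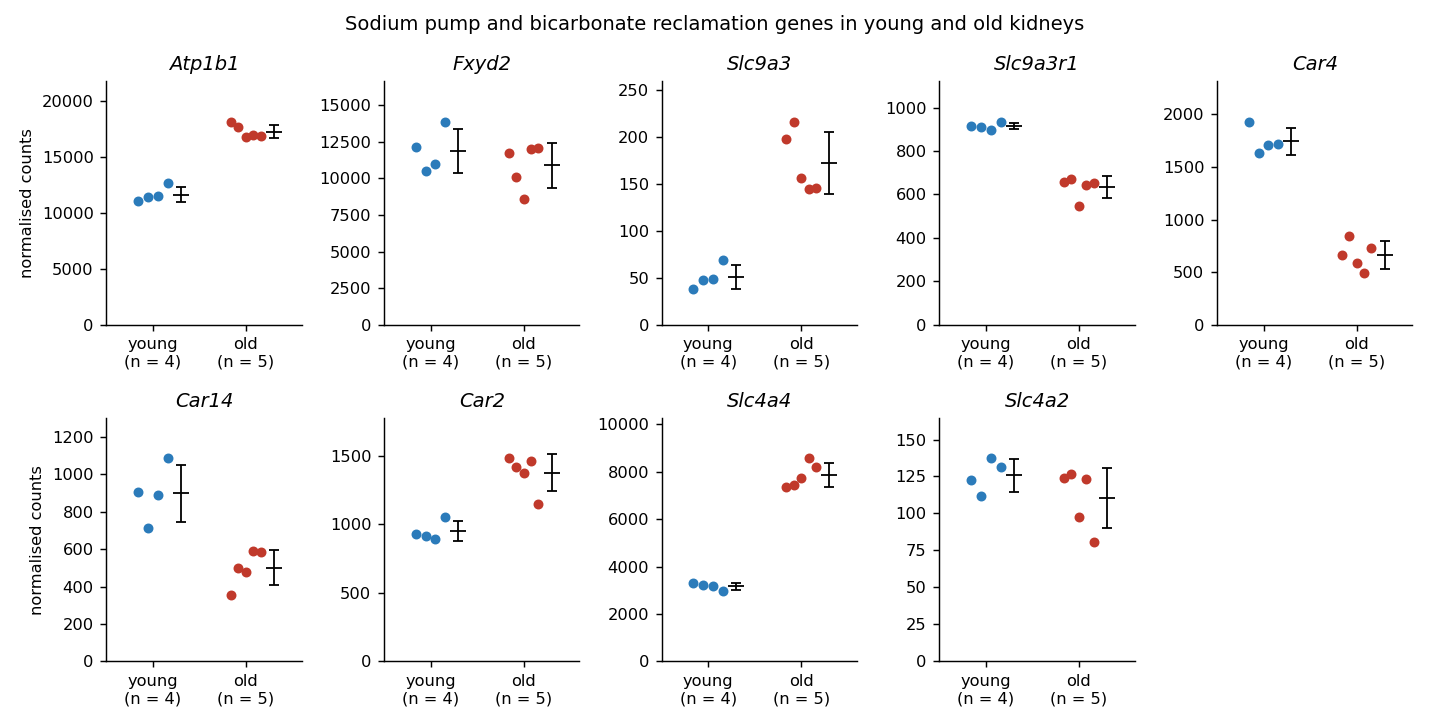
Normalised counts of the 9 members in each library (points; blue, young, n = 4; red, old, n = 5), with mean and SD beside each group, each panel on its own linear axis from 0. Young and old points overlap only for Fxyd2 and Slc4a2.

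At the apical membrane the exchanger and the scaffold gene Slc9a3r1 changed in opposite directions. Another NHE3 partner, Slc9a3r2, was called higher (log2 difference 0.51, adjusted p 0.00160 by limma). It is among 6 of 11 such partners called higher, while 3 were called lower. Slc9a3, on chromosome 13 (74121457 to 74169442), encodes NHE3, the sodium/proton exchanger that performs most proton secretion in the proximal tubule. It was measured at 38.5, 47.6, 49.0 and 68.8 normalised counts in young and at 198, 217, 156, 145 and 145 in old libraries. The lowest old library was above the highest young library. The mean rose 3.38-fold, from 51.0 ± 12.8 (SD, n = 4) to 172 ± 33.1 (SD, n = 5), a log2 difference of 1.75 (SE 0.18, adjusted p 1.10e-07 by limma), and 2.41% of genes tested had a larger rise. These values rest on 47 to 76 reads per young and 137 to 198 reads per old library, so counting error is larger here than for the other called members.

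Slc9a3r1, on chromosome 11 (115163341 to 115181181), encodes NHERF1, a PDZ scaffold that ties NHE3 and the phosphate transporter to ezrin under the brush border. It stood at 917, 912, 898 and 935 normalised counts in young and at 659, 672, 546, 643 and 652 in old libraries. The young libraries lay close together and every old library was below them, with old replicate 3 the lowest. The mean fell from 916 ± 15.3 (SD, n = 4) to 634 ± 50.7 (SD, n = 5), a log2 difference of -0.53 (SE 0.09, adjusted p 5.52e-05 by limma). With a trend of level on transcript length removed from each library the difference was -0.28 (adjusted p 0.0100 by limma), the smallest size among the alternatives.

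Of the carbonic anhydrases, both membrane-bound members fell and the cytosolic one rose. Car4, on chromosome 11 (84957786 to 84966044), encodes the lipid-anchored enzyme of the brush border. It was measured at 1931, 1629, 1708 and 1716 normalised counts in young and at 662, 844, 582, 494 and 731 in old libraries. The highest old library was far below the lowest young library. The mean was 2.63-fold lower, falling from 1746 ± 129 (SD, n = 4) to 663 ± 135 (SD, n = 5), a log2 difference of -1.42 (SE 0.13, adjusted p 2.09e-08 by limma). A larger fall was found in 7.39% of genes tested.

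Car14, on chromosome 3 (95897768 to 95904691, minus strand), encodes a membrane-spanning enzyme with its active site outside the cell, and exons of Aph1a lie opposite it on the other strand. It stood at 907, 712, 889 and 1086 normalised counts in young and at 356, 500, 478, 590 and 586 in old libraries. The groups did not overlap, although both varied more than those of Slc9a3r1. The mean fell from 899 ± 153 (SD, n = 4) to 502 ± 95.6 (SD, n = 5), a log2 difference of -0.85 (SE 0.14, adjusted p 4.35e-05 by limma).

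Car2, also on chromosome 3 (14886273 to 14900770), encodes the abundant cytosolic enzyme and went the other way. It was measured at 930, 915, 895 and 1055 normalised counts in young and at 1482, 1420, 1372, 1461 and 1151 in old libraries. Every old library was above every young library, with old replicate 5 nearest to them. The mean rose from 949 ± 72.0 (SD, n = 4) to 1377 ± 133 (SD, n = 5), a log2 difference of 0.53 (SE 0.10, adjusted p 0.000104 by limma). It was 0.80 with the length trend removed. Car2 is also made by intercalated cells of the collecting duct, and the summed markers of those cells were lower in old kidneys, at 882 to 1055 normalised counts against 1320 to 1469 in young, with 6 of 8 called lower and 1 higher. Their part in the Car2 level was not tested.

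On the basolateral side the cotransporter rose and the anion exchanger was not called. Slc4a4, on chromosome 5 (88886818 to 89239653), encodes NBCe1, the main exit of bicarbonate from the proximal cell. It was measured at 3301, 3242, 3168 and 2977 normalised counts in young and at 7363, 7465, 7734, 8569 and 8220 in old libraries. The old values were all above the young values, with a wide gap between them. The mean rose 2.48-fold, from 3172 ± 141 (SD, n = 4) to 7870 ± 512 (SD, n = 5), a log2 difference of 1.31 (SE 0.09, adjusted p 8.10e-10 by limma), the lowest of the 9 members. A larger rise was found in 5.34% of genes tested, and the difference was 0.90 with the length trend removed.

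Slc4a2, also on chromosome 5 (24423837 to 24440950), encodes AE2, a widely made basolateral chloride/bicarbonate exchanger. It stood at 123, 112, 137 and 131 normalised counts in young and at 124, 127, 97.4, 123 and 80.6 in old libraries. The ranges overlapped, and 3 of the 5 old libraries lay within the young range. The log2 difference was -0.20 (95% confidence interval -0.52 to 0.11, adjusted p 0.257 by limma). Exons of Fastk and Gm22333 lie opposite Slc4a2 on the other strand.

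Ratios of gene pairs within a library were taken on normalised counts plus a pseudocount of 1, through which library scaling still enters, most for low counts such as those of Slc9a3. They were compared between the ages for 6 pairs of members with an exact two-sided permutation test over all 126 ways to assign the ages. Adjustment was over the 7 pairs tested, including pairs that the levels of the single genes forced apart, for which no p is given. The smallest p that this design allows is 0.00794. The ratio of Fxyd2 to Atp1b1 was lower in old kidneys without overlap, with a log2 difference of -0.70 and a standard error of 0.11. The gap between the ages in Atp1b1 was larger than the overlap of the Fxyd2 ranges. The ratio therefore had to separate the ages and is given as a description with no test, and Fxyd2 alone was not called.

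Further along the path, Slc4a2 relative to Slc4a4 was 2.86-fold lower in old kidneys without overlap (log2 difference -1.51, standard error 0.17). The gap between the ages in Slc4a4 was larger than the overlap of the Slc4a2 ranges. This ratio therefore had to separate the ages and is given with no test. Slc9a3r1 relative to Slc9a3 was 4.85-fold lower (-2.28, standard error 0.20) and Car4 relative to Car2 was 3.87-fold lower (-1.95, standard error 0.18). In these 2 pairs each gene alone separated the ages, in opposite directions, so the ratio had to separate them too and is given as a description with no test. The remaining pairs overlapped between the ages. Slc9a3 relative to Slc4a4, the apical entry and basolateral exit steps, differed by 0.44 with a standard error of 0.26 (exact permutation p 0.127, adjusted 0.127). Car14 relative to Car4, the pair of luminal enzymes, differed by 0.57 with a standard error of 0.23 (exact permutation p 0.0635, adjusted 0.0741). Without young replicate 4 these were 0.62 and 0.67 and both passed (exact permutation, adjusted p 0.0357 each), so these 2 results rest on that library.

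**Figure D3:**
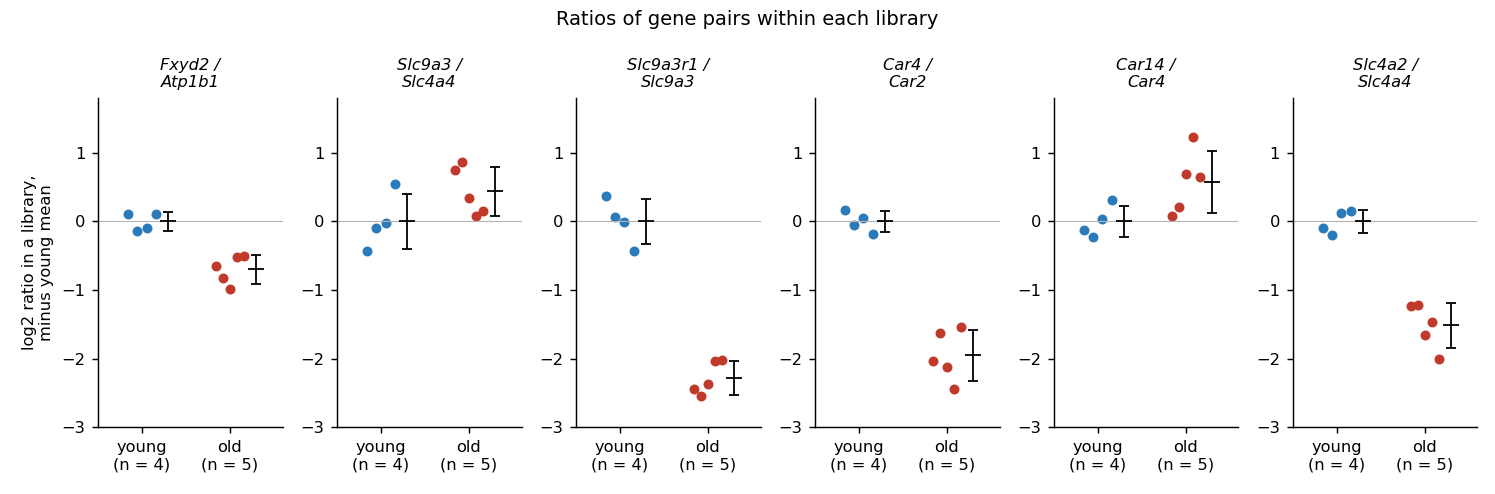
Log2 ratio of 6 gene pairs within each library, minus the young mean of that pair (points; blue, young, n = 4; red, old, n = 5), with mean and SD. Old and young points are apart for 4 pairs and overlap for Slc9a3 to Slc4a4 and Car14 to Car4.

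Around the members, 74 other genes of the same transport processes were listed, of which 55 were in the table and tested. Of these, 17 were called higher and 20 lower, with a median log2 difference of -0.08 and a median size of 0.59, again close to genes in general. A change of at least 2-fold was called in 13 of the 55, 4 higher and 9 lower. The split moved to 20 higher and 16 lower when mitochondrial genes were left out of the scaling.

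Relatives of the pump and of NHE3 were called in both directions. In the pump and Fxyd family 1 of 8 was called higher and 3 lower, none by 2-fold. Among 4 other Slc9 exchangers 1 was called higher and 3 lower, among them Slc9a2, an apical exchanger of distal segments (log2 difference -1.09, adjusted p 7.63e-05 by limma). Of 11 genes whose products bind or regulate NHE3, 6 were called higher and 3 lower. The largest change in that list was in Sgk1, a kinase induced by corticosteroids that promotes sodium transport, which rose from 127 ± 11.8 (SD, n = 4) to 308 ± 67.6 normalised counts (SD, n = 5), a log2 difference of 1.25.

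Among 6 other Slc4 transporters 3 were called higher and 1 lower. Slc4a7, an electroneutral sodium bicarbonate cotransporter, rose by 1.29 on the log2 scale and Slc4a3, an anion exchanger, by 1.15, the latter with overlapping groups. Slc4a9, an exchanger of intercalated cells, had a log2 difference of -1.45 and is among the 6 of 8 markers of those cells that were called lower, while 1 was called higher. Of 4 Slc26 anion exchangers 1 was called higher and 1 lower, neither by 2-fold.

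Among 8 other carbonic anhydrases none was called higher and 4 were called lower, Car5a, Car5b, Car9 and Car12. Of all genes tested 59.7% were called and 30.5% were called lower. Car5a was near the floor, at 9.01 to 22.6 normalised counts in young and 3.73 to 11.8 in old libraries. Its groups overlapped, and its adjusted p was 0.0465 by limma. Car12, which like Car14 spans the membrane with its active site outside, went from 606 ± 36.0 (SD, n = 4) to 241 ± 37.2 normalised counts (SD, n = 5), a log2 difference of -1.34 with an adjusted p of 1.81e-08 by limma. Car9, of the same build, had a log2 difference of -1.66 with an adjusted p of 2.71e-05. The membrane-bound Car15 was not called (0.45, adjusted p 0.117 by limma). Car2 was the only carbonic anhydrase called higher among the 11 tested, members included.

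Ammonia production in the proximal tubule yields new bicarbonate. Of 7 genes of this process 1 was called higher and 3 lower. Pck1, the enzyme that passes carbon from glutamine on to glucose, went from 4067 ± 463 (SD, n = 4) to 1338 ± 249 normalised counts (SD, n = 5), a log2 difference of -1.62 with an adjusted p of 2.70e-09 by limma, and Got1, a cytosolic aminotransferase, had one of -1.15. Of 7 water and ion channel partners of the proximal tubule 4 were called higher and 2 lower. Kcnj15, a basolateral potassium channel subunit, rose by 1.05 on the log2 scale, whereas Cldn10, a tight junction pore protein, had a log2 difference of -1.56 and Aqp7, a glycerol and water channel, one of -1.13.

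**Figure D4:**
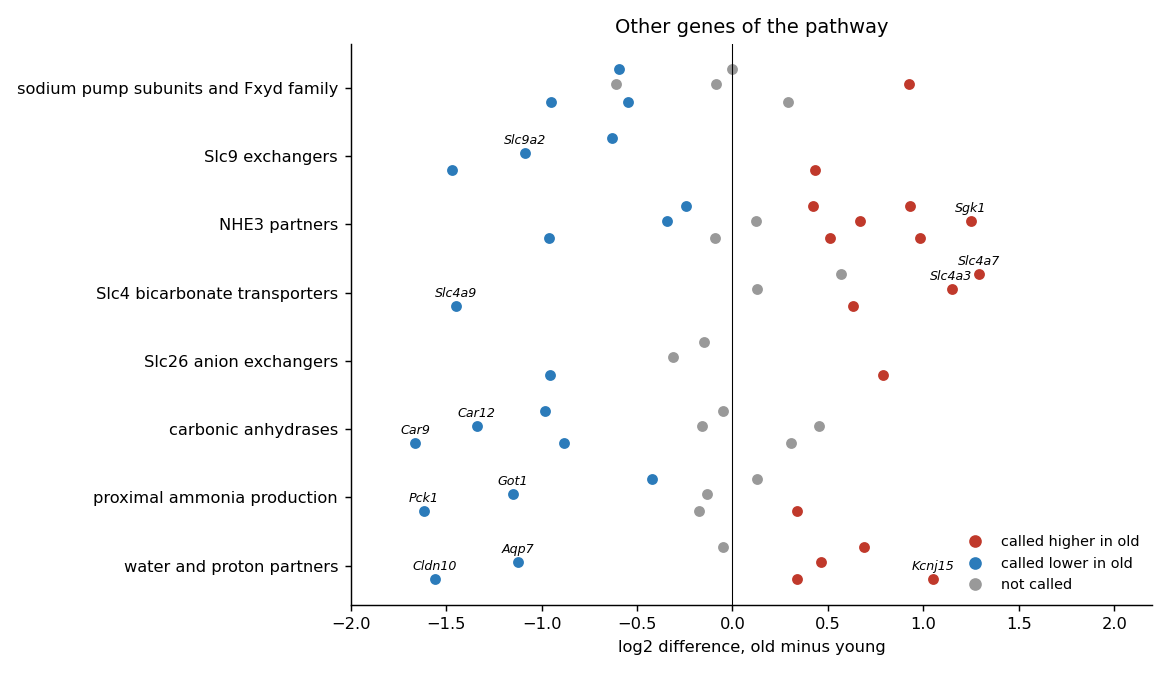
Log2 difference, old minus young, of the 55 other pathway genes tested, by list (points; red, called higher; blue, called lower; grey, not called), with names for 12 of the 13 called at 2-fold or more. No carbonic anhydrase on this plot was called higher.

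The tissue label was checked against marker genes. All 13 proximal tubule markers were in the table and none was at 0 in any library. Their summed level was 57796 to 62194 normalised counts in young and 51550 to 68103 in old libraries, which overlap, and the old mean was 1.03 times the young mean. Within that list 3 markers were called higher and 7 lower, so proximal genes outside the members also went both ways. When libraries were centred on these 13 markers, the median of all genes shifted to 0.17 and 61.0% of called genes were higher in old, and the members were still 4 higher and 3 lower. Leaving out mitochondrial genes shifted the median to 0.13, with 58.5% of called genes higher against 48.9% before.

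Markers of other cells differed as well. Thick ascending limb markers summed to 8884 to 9636 normalised counts in young and 11331 to 15778 in old libraries, with 2 of 6 called higher, and distal convoluted tubule markers to 4282 to 5436 and 6577 to 7598, with 3 of 5 called higher and 2 lower. Endothelial markers were called higher in 4 of 7 cases and stromal markers lower in 4 of 5, against 29.2% of all genes tested called higher and 30.5% called lower. Principal cell markers overlapped between the ages, at 2294 to 2973 in young and 1106 to 3563 in old libraries, old replicate 3 being the highest, and 4 of 7 were called lower. Immune markers were called higher in 3 of 5 tested, and adipocyte markers summed to 271 to 1427 normalised counts in young and 55.97 to 1033 in old libraries, which differ widely within each age, with Adipoq and Plin1 at 0 in at least 1 library and 1 of 3 tested called lower. Whether these cell markers bear on the values of the members was not tested.

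**Figure D5:**
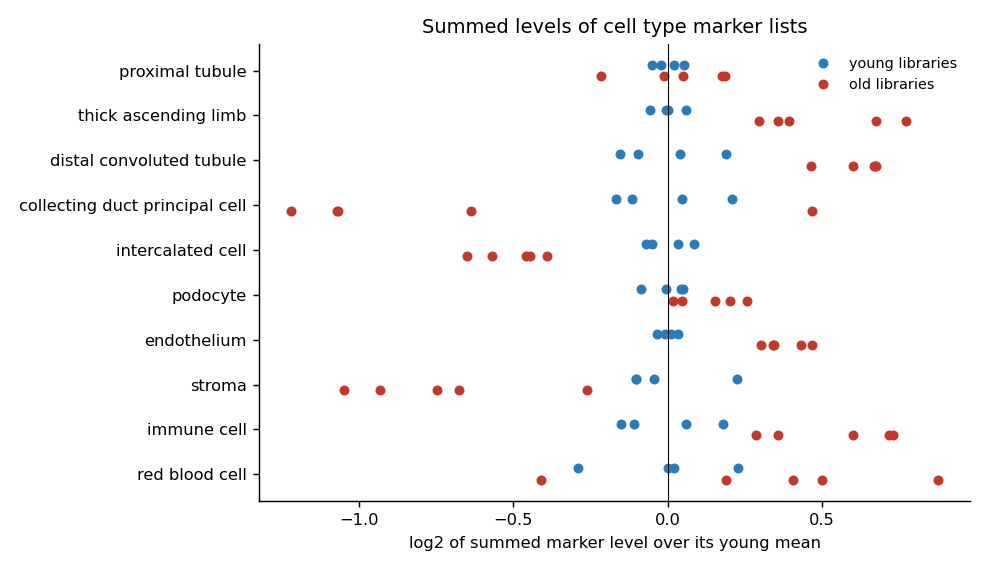
Summed normalised counts of each cell type marker list in each library, as log2 of the ratio to the young mean of that list (points; blue, young, n = 4; red, old, n = 5). Proximal tubule sums overlap between the ages, thick ascending limb and distal convoluted tubule sums are higher in old, and intercalated cell sums are lower.

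For each member the genes whose pattern over the 9 libraries was most like it were found by the Euclidean distance of mean-centred log2 levels, among 8150 genes averaging 50 normalised counts or more. Slc4a4 was nearest to Rab14 (distance 0.20) and Grk6 (0.23), and Atp1b1 to Maco1 (0.16) and Celsr2 (0.17). Slc9a3r1 was nearest to Mettl7b (0.15) and Pdzd3 (0.17), Car2 to Rbck1 (0.21) and Rspry1 (0.21), and Fxyd2 to Edf1 (0.13) and Rpl29 (0.20). Car4 was nearest to Slc22a22 (0.37) and Clcn7 (0.38), Car14 to Med25 (0.33) and Mbd2 (0.39), Slc4a2 to Lrp10 (0.25) and Arf6 (0.33), and Slc9a3 to Ccdc148 (0.58) and Bet1l (0.72). No member was among the nearest genes of another member.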

How the data were processed

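RNA from kidneys of young (n = 4) and old (n = 5) wild-type mice was made into stranded 3′ end libraries from 500 ng of total RNA. According to the submitters' processing notes and the study's methods, the authors aligned reads to GRCm39 with TopHat and counted them per gene with HTSeq 0.6.1 on GENCODE. The deposited table holds a count signal, obtained when the authors divided read counts by a size factor per library. Whole reads were recovered, since 100% of the values were whole multiples (within 0.01) of the smallest value of their library. Total reads per library were 4486406 to 6355095, and 0 pairs of libraries were identical. The table had been reduced before deposit, as the lowest gene mean was 4.49. Replicate numbers only name libraries. The p-values set the difference between the ages against the spread between these samples, and they do not separate age from the title prefix.

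Old and young were compared with limma 3.58.1 in R 4.3.3 (lmFit and a trended eBayes) on log2(normalised count + 1) of genes that reached 10 normalised counts in 4 or more libraries, with Benjamini-Hochberg adjustment over all 12667 tested. Fold changes on this scale are understated for low genes. Ratios within libraries were compared by an exact two-sided permutation test, reported only where the levels of the single genes did not fix the outcome. Alternatives were pseudocounts of 0.1 and 5, no filter, a mean of at least 100, TMM factors, table totals, mitochondrial genes left out, robust eBayes, edgeR 4.0.16 and DESeq2 1.42.0 on whole reads, removal of a transcript length trend (lowess, span 0.3, GENCODE vM21) and each library left out. Centring on proximal tubule markers was added after seeing the data. The scripts were tested on simulated data. Members, lists and tests were chosen with earlier results of these data known. Named genes are the 9 members, pathway genes called with at least a 2-fold change, and the 2 genes nearest each member. A few others (Car5a, Car5b, Car15, Slc9a3r2) were named after their values were seen. Some results that the rule covers are not reported here. Gene positions are from GENCODE vM21 (GRCm38) and promoter windows from RefSeq (GRCm38.p6), matched by symbol.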

Additional observations from a re-analysis of the deposited data

Results flagged for a closer look

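Slc9a3r1 was low in old replicate 3, at 9.09 on the log2 scale (546 normalised counts), against 9.33 to 9.39 in the other old libraries. The gap to the nearest library was 0.788 of the range of the group, above the limit used to mark a library as far from the others. Of 34 groups of libraries examined in this way, 1 was marked, where chance would mark about 1.7. The log2 difference of Slc9a3r1 without a library ran from -0.55 to -0.48, and it was called each time. Old replicate 3 also had the highest summed level of principal cell markers (3563 normalised counts) and the lowest of proximal tubule markers (51550 normalised counts) among the 9 libraries, and whether these bear on Slc9a3r1 was not tested.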

How the results depend on the processing

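No paired analysis was possible because the young and old kidneys came from different mice. The counts of 7 called members, 4 higher and 3 lower, were the same under all 21 alternatives. Over them the log2 difference ran from 1.57 to 1.92 for Slc9a3, from 0.90 to 1.48 for Slc4a4, from 0.52 to 0.75 for Atp1b1, from 0.48 to 0.80 for Car2, from -1.51 to -1.06 for Car4, from -0.95 to -0.57 for Car14 and from -0.59 to -0.28 for Slc9a3r1. Fxyd2 changed sign, without being called, when mitochondrial genes were left out (0.015), when the length trend was removed (0.15) and when libraries were centred on proximal tubule markers (0.048, chosen after seeing the data). Keeping only genes that averaged 100 normalised counts or more left 11 pathway genes called lower instead of 20, with 31 of 55 tested, and 4101 genes called in all against 7568. Leaving out 1 library gave 17 to 18 pathway genes higher and 17 to 20 lower. It moved the ratio of Slc9a3 to Slc4a4 between 0.30 and 0.62 and that of Car14 to Car4 between 0.41 and 0.69, and both passed without young replicate 4 (0.62 and 0.67). Over 11 alternatives the log2 difference ran from -0.75 to -0.62 for the ratio of Fxyd2 to Atp1b1. For that of Slc4a2 to Slc4a4 it ran from -1.59 to -1.39. No test is given for these pairs, whose separation the single genes fixed. Slc9a3, with 47 to 76 reads in young libraries, is the called member most limited by depth.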
